A study of Homo sapiens with 12 samples.

Results

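The SOX transcription factors were followed through 12 RNA-seq libraries of 2 pancreatic ductal adenocarcinoma (PDAC) cell lines. The members were chosen by name, as the rows of the deposited gene tables with the symbols SOX2, SOX4, SOX5, SOX6, SOX8, SOX9, SOX11, SOX12, SOX13 and SOX18, and all 10 were found among 48114 genes. PANC-1 cells, a duct-derived carcinoma line that the study uses as basal-like, had been silenced for 48 h by siRNA for QKI (siQKI) or for RBFOX2 (siRBFOX2), both of them RNA-binding proteins that regulate splicing, or had received a control siRNA (siCtrl). The labels give 40 nM for the knockdowns and no dose for siCtrl. HPAF-II cells, used as classical, received siCtrl for 48 h. Each group holds 3 libraries, described as biological replicates of a single line, and no group combines both knockdowns.

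SOX proteins bind DNA through an HMG box, a domain that bends the double helix and reads short sites around ACAAT or ACAAAG. They are grouped by sequence. The SOXE group holds SOX8 and SOX9, and SOX9 marks pancreatic progenitors and later the duct epithelium, from which it is also known in PDAC. The SOXC group holds SOX4, SOX11 and SOX12, activators of progenitor and neuronal genes, and SOX4 is also known as an effector of TGF-beta signalling. The SOXF factor SOX18 is known from endothelial cells. The SOXD factors SOX5, SOX6 and SOX13 have no activation domain of their own and work with other SOX proteins, as SOX5 and SOX6 do with SOX9 in cartilage, and the SOXB1 factor SOX2 maintains pluripotent and neural stem cells.

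The knockdowns are of RNA-binding proteins, so the transcripts of the members were searched for the core QKI motif (ACTAAC or ACTAAT, written as DNA) and the RBFOX motif TGCATG on the sense strand, in 1 coding transcript a gene of GENCODE 29 (hg38). The matches in SOX2, SOX4, SOX12 and SOX18, the members with a hit and a clear level in either line, are shown within 30 bases, with the motif in capitals, since QKI and RBFOX proteins are known to bind such sequences in RNA.

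SOX2, QKI motif, bases 2415 to 2420 of the transcript, 3′UTR: gtatatatttgaACTAATatcatccttata

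SOX4, QKI motif, bases 523 to 528, 5′UTR of the GENCODE model: atgctgaaaagaACTAATaaaaataatcac

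SOX4, RBFOX motif, bases 1156 to 1161, 5′UTR of the GENCODE model: atgccagtctgtTGCATGcaggctttttgg

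SOX12, RBFOX motif, bases 3152 to 3157, 3′UTR: gccctgtggttcTGCATGtctgtgctcttc

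SOX18, RBFOX motif, bases 185 to 190, coding sequence: ccgccgcgactgTGCATGggccccgggaca

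The transcripts of SOX8, SOX9 and SOX13 held neither motif. Introns, and exons outside the transcript used, were not searched for any member. Those of SOX5 (3 QKI and 5 RBFOX matches), SOX6 (2 and 3) and SOX11 (1 and 2), genes with low values or none in both lines, are not printed. Such matches are common. Among transcripts within 10% of the same length, 70.3% had a QKI match and 78.1% an RBFOX match for SOX4, 68.9% an RBFOX match for SOX12, 35.4% an RBFOX match for SOX18 and 32.7% a QKI match for SOX2. For SOX9, which has no match, 52.5% of like-length transcripts had a QKI motif and 63.6% an RBFOX motif. The SOX4 QKI match lies in a 5′UTR stretch that depends on the transcript model. The deposited table starts the gene at base 21593751 of chromosome 6 and GENCODE at base 21592768. The SOX4 RBFOX match lies after both starts. A match is a description of the sequence and not a binding site.

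The genes differ in structure. SOX2 (chr3:181711925-181714436), SOX4 (chr6:21593751-21598619), SOX11 (chr2:5692384-5701385) and SOX12 (chr20:325552-330224) have 1 exon and can have no cassette exon. SOX18 (chr20:64047582-64050083) has 2 exons, and SOX8 (chr16:981770-986979) and SOX9 (chr17:72121020-72126420) have 3. SOX13 (chr1:204073099-204127786) has 13 to 14 exons in its coding transcripts, SOX5 (chr12:23529504-24562491) 5 to 17 and SOX6 (chr11:15966449-16738643) 15 to 16. The positions are those of the deposited tables on hg38, and the exon numbers are from GENCODE 29.

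The values are normalized counts, in which the authors had scaled the count of every gene by 1 size factor per library. The size factors lay between 0.877 and 1.15 in PANC-1 and between 0.810 and 1.09 in HPAF-II libraries. Most low values are multiples of 3 steps, so the number of sequenced fragments behind a value is unknown and precision was taken from the replicates. QKI was left at 19.7% of the siCtrl mean in siQKI libraries and RBFOX2 at 13.6% in siRBFOX2 libraries. RBFOX2 was also lower in siQKI libraries, at 81.9% of siCtrl (limma, log2 fold change -0.29, SE 0.09, adjusted p = 0.0207), so both knockdowns moved RBFOX2 in the same direction to different depths. All 6 duct epithelium markers (KRT7, KRT8, KRT18, KRT19, EPCAM and MUC1) were expressed in every group. Of 4 blood markers, HBB was listed at 0 in every library, and PTPRC and CD3E stayed at or below 0.0838 per 1000000. The remaining marker, CD68, was expressed in every group and made up nearly all of the blood sum, which was 144 to 167 in PANC-1 siCtrl, 116 to 118 in siQKI, 126 to 133 in siRBFOX2 and 75.8 to 106 in HPAF-II libraries. The summed endothelial markers stayed at or below 0.331 per 1000000 in every library. In bulk RNA, fewer cells with a transcript and less transcript per cell cannot be told apart.

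To set the members side by side, counts were rescaled to a total of 1000000 per library and divided by exon length in kb. SOX9 stood far above the other members in all 4 groups. In PANC-1 siCtrl cells its level per kb was 79.6 ± 5.47 (SD, n = 3), which was 9.95 times that of SOX4 (8.00 ± 0.612). SOX12 (7.47 ± 0.322) overlapped SOX4 in its libraries, while SOX18 (3.34 ± 0.237), SOX13 (2.23 ± 0.211) and SOX8 (0.312 ± 0.111) followed without overlap between neighbours. SOX6 and SOX2 were near 0, and SOX5 and SOX11 were listed at 0 in all siCtrl libraries. In siQKI cells SOX12 (10.4 ± 0.584) and SOX4 (9.89 ± 0.305) again overlapped, and SOX18 (6.02 ± 1.14) came next, below SOX4 in every library. Because it is not known how the authors counted reads that span several exons, the order between genes with many exons and with few is approximate.

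SOX9 was lower in both knockdowns. Its normalized counts were 113565, 101732 and 107842 in siCtrl libraries, against 83628, 76249 and 74663 in siQKI libraries and 83848, 83022 and 84160.0 in siRBFOX2 libraries. All 6 knockdown libraries lay below all 3 siCtrl libraries. The level was 72.6% of siCtrl after siQKI (log2 fold change -0.46, SE 0.05, adjusted p = 2.57e-06) and 77.7% after siRBFOX2 (log2 fold change -0.36, SE 0.05, adjusted p = 4.98e-05). These p-values, and those that follow, are from limma on log2(normalized count + 1) over the 22544 genes whose mean was 10 or more, with Benjamini-Hochberg adjustment, and a value under 0.05 is called past the threshold. The difference between the knockdowns was -0.10 on the log2 scale (95% interval -0.20 to 0.0018, adjusted p = 0.165), which did not pass. SOX9 passed under all 18 alternatives in both knockdowns. It lies within SOX9-AS1, an antisense RNA on the opposite strand, and the strand setting of the counts is not given in the sources used here. SOX9-AS1 itself was low, at 152 ± 66.2 in siCtrl, 81.7 ± 40.1 in siQKI and 117 ± 55.5 in siRBFOX2 libraries, and did not pass in either knockdown.

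SOX8, the other SOXE member, is known from glia and neural crest and from the testis. It was much scarcer, with 301, 653 and 478 normalized counts in siCtrl, 932, 674 and 777 in siQKI and 655, 486 and 669 in siRBFOX2 libraries. Every siQKI library was above every siCtrl library, by as little as 674 against 653, while the siRBFOX2 libraries overlapped the siCtrl libraries. The log2 fold change was 0.79 after siQKI (SE 0.24, adjusted p = 0.0174) and 0.39 after siRBFOX2 (95% interval -0.11 to 0.90, adjusted p = 0.259), and the knockdowns did not differ past the threshold (adjusted p = 0.278). The siQKI call rests on single libraries. Without siCtrl replicate 1, the lowest library, the log2 fold change was 0.49 with adjusted p = 0.0833, and without siQKI replicate 1, the highest, it was 0.67 with adjusted p = 0.0772. SOX8 overlaps a joined LMF1 and CEROX1 entry of the table, so reads of the overlap may be shared.

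In the SOXC group, SOX4 rose in both knockdowns. Normalized counts were 17139.5, 16132 and 15008 in siCtrl, 19953, 18531 and 18783 in siQKI and 19497, 21732 and 18653 in siRBFOX2 libraries. Every knockdown library lay above every siCtrl library, and the knockdowns overlapped each other. The rise was 0.25 on the log2 scale after siQKI (SE 0.06, adjusted p = 0.00513) and 0.31 after siRBFOX2 (SE 0.06, adjusted p = 0.00139). The difference between them was -0.06 (95% interval -0.19 to 0.07, adjusted p = 0.544).

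SOX12, a SOXC factor with a weaker activation domain than SOX4 and SOX11, rose as well, and more after siQKI. The counts were 11267, 12605 and 11858 in siCtrl, 15457, 16808 and 15345 in siQKI and 15079, 13714 and 13406 in siRBFOX2 libraries, and the libraries of the 3 groups did not overlap. The log2 fold change was 0.41 after siQKI (SE 0.06, adjusted p = 5.18e-05) and 0.24 after siRBFOX2 (SE 0.06, adjusted p = 0.00616). The difference between the knockdowns, 0.17 (SE 0.06, adjusted p = 0.0432), was close to the threshold and did not pass under 9 of 18 alternatives. Among these were the fits without siCtrl replicate 3, without siQKI replicate 1, 2 or 3, and without siRBFOX2 replicate 2 or 3, with adjusted p from 0.0554 to 0.187. GENCODE places the antisense RNAs AL512380.2 over SOX4 and NRSN2-AS1 over SOX12, whose reads cannot be told apart without strand. SOX11 was listed at 0 in all 12 libraries.

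SOX12 and SOX13 are the members with a clear level in every PANC-1 library whose RefSeq promoter does not lie inside a longer GENCODE model of the same gene, 1 that rose in both knockdowns and 1 that did not pass in either. Their 250 bases upstream of the start are therefore shown, read on the plus strand of GRCh38.p14 from chr20:325302-325551 and chr1:204072865-204073114. Capitals mark the GC box (GGGCGG) and the CCAAT box on either strand, and no marked motifs overlap.

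SOX12: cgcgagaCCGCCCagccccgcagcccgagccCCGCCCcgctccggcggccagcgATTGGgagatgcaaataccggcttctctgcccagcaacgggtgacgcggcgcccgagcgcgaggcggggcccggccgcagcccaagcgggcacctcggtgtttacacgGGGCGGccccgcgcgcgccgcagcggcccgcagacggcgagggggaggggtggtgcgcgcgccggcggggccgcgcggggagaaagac

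SOX13: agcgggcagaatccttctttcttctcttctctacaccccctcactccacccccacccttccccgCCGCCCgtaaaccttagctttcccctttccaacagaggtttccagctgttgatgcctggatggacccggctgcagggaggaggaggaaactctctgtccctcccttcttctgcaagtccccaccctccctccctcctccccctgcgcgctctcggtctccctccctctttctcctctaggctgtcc

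The SOX12 stretch was 79.2% G or C and held 3 GC boxes and 1 CCAAT box. The SOX13 stretch was 60.8% G or C and held 1 GC box and no CCAAT box. Over the same 250 bases, 42.6% of 35116 RefSeq promoters held at least 1 GC box and 32.0% at least 1 CCAAT box, with a median of 58% G or C. How many promoters hold 3 GC boxes was not counted. Neither promoter held the SOX sites ACAATG (9.29% of all promoters) or ACAAAG (13.7%). SOX4 also rose in both knockdowns, and its stretch, not printed here, was 48.8% G or C with 0 GC boxes and 4 CCAAT boxes. A link between these sequences and the knockdown values was not tested.

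SOX18, the SOXF member, had the largest difference between the knockdowns among members past the threshold. It had 1959.6, 2322 and 2145 normalized counts in siCtrl, 4412, 3745 and 2957 in siQKI and 2792, 2788 and 2516 in siRBFOX2 libraries. The siQKI libraries were all above the siRBFOX2 libraries, and these were all above the siCtrl libraries. The level reached 173% of siCtrl after siQKI (log2 fold change 0.77, SE 0.12, adjusted p = 1.07e-04) and 126% after siRBFOX2 (log2 fold change 0.33, SE 0.12, adjusted p = 0.0469). The difference between the knockdowns was 0.44 (SE 0.12, adjusted p = 0.0134), and it was lost under 3 of 18 alternatives, among them without siQKI replicate 1 (0.30, adjusted p = 0.0726) and without siRBFOX2 replicate 3 (0.39, adjusted p = 0.0571). The siRBFOX2 call is weak and was lost under 9 of 18 alternatives, with adjusted p between 0.0133 and 0.167 over all 18. The libraries that it rests on are siCtrl replicates 1 and 3, siQKI replicate 2 and siRBFOX2 replicates 1 and 2, since with any 1 of them left out the adjusted p was 0.0622 to 0.159. SOX18 is known from endothelium, and in siCtrl libraries the 4 endothelial markers PECAM1, CDH5, VWF and KDR summed to 0.0787 to 0.107 per 1000000, where SOX18 was at 5.78 to 6.67 per 1000000. In siQKI libraries they summed to 0.00319 to 0.0984 and in siRBFOX2 libraries to 0.127 to 0.331.

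Of the SOXD group, SOX13, which is known from T cell development and as an antagonist of TCF1 in WNT signalling, did not pass in either knockdown. Its counts were 6103, 5185 and 5743 in siCtrl, 6267, 5716 and 5560.1 in siQKI and 6231, 5909 and 5894 in siRBFOX2 libraries, all groups overlapping. The log2 fold change was 0.04 after siQKI (95% interval -0.10 to 0.19, adjusted p = 0.679) and 0.09 after siRBFOX2 (95% interval -0.06 to 0.23, adjusted p = 0.411). A larger change than these intervals hold was not seen at this precision. SOX6 was at the edge of detection, with counts from 0.968 to 42.3 in PANC-1 libraries, and its log2 fold changes of -0.67 (SE 1.33, adjusted p = 0.756) and -1.67 (SE 1.33, adjusted p = 0.411) are within that spread. SOX5 was listed at 0 in 8 of 9 PANC-1 libraries and at 1.14 in siQKI replicate 1.

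SOX2, of the SOXB1 group, fell below the filter in PANC-1 and was not tested. It was listed at 0 in 5 of 9 PANC-1 libraries and reached 34.6 in siQKI replicate 3 and 26.1 and 17.6 in siRBFOX2 replicates 2 and 3. It lies within SOX2-OT, an RNA on the same strand, whose reads cannot be separated from it where exons overlap.

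Of the 10 members, 7 passed the filter, SOX6 narrowly and through only some of its libraries. After siQKI, 4 were higher (SOX4, SOX8, SOX12 and SOX18) and 1 was lower (SOX9). Among all genes tested 33.0% passed, 14.9% higher and 18.1% lower. After siRBFOX2, 3 were higher (SOX4, SOX12 and SOX18) and 1 was lower (SOX9), and among all genes 26.5% passed, 12.0% higher and 14.5% lower. The split of all calls depends on the scaling. It was 3362 higher and 4070 lower after siQKI, and 4454 higher and 2654 lower after rescaling by the upper quartile, while it was 2713 and 3272 after siRBFOX2 and 3100 and 2417 after that rescaling. SOX4, SOX8, SOX9, SOX12 and SOX18 kept their directions under each scaling. Between siQKI and siRBFOX2, 2 members passed, both higher after siQKI (SOX12 and SOX18), where 21.5% of all genes passed and 9.93% were higher after siQKI. Both knockdowns are set against the same siCtrl libraries, so their fold changes share that error.

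**Figure D1:**
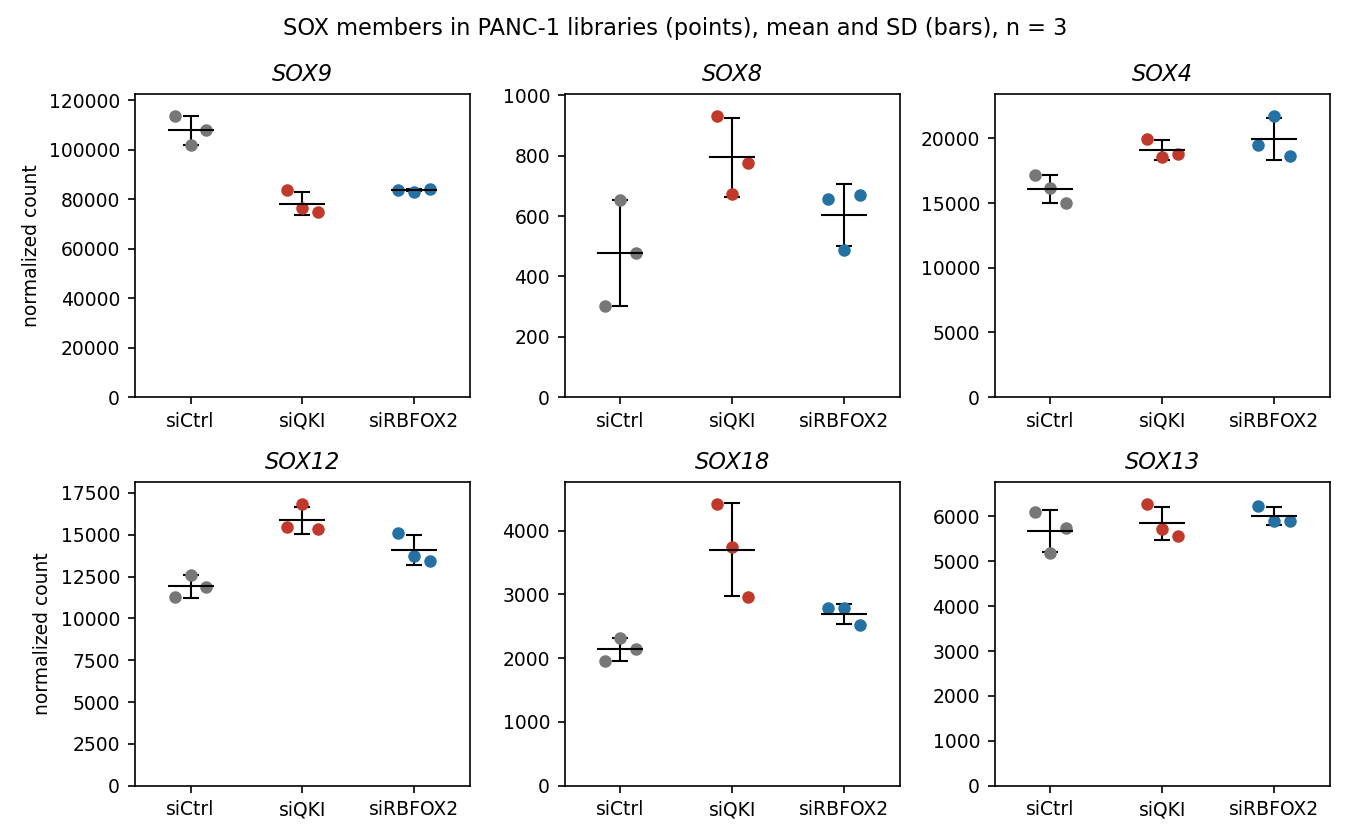
Normalized counts (y axis, from 0) of SOX9, SOX8, SOX4, SOX12, SOX18 and SOX13 in the PANC-1 siCtrl, siQKI and siRBFOX2 groups (x axis), with a point for each library and bars for the mean and SD (n = 3). All 6 knockdown libraries of SOX9 lie below its siCtrl libraries, those of SOX4, SOX12 and SOX18 lie above theirs, and those of SOX13 overlap.

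**Figure D2:**
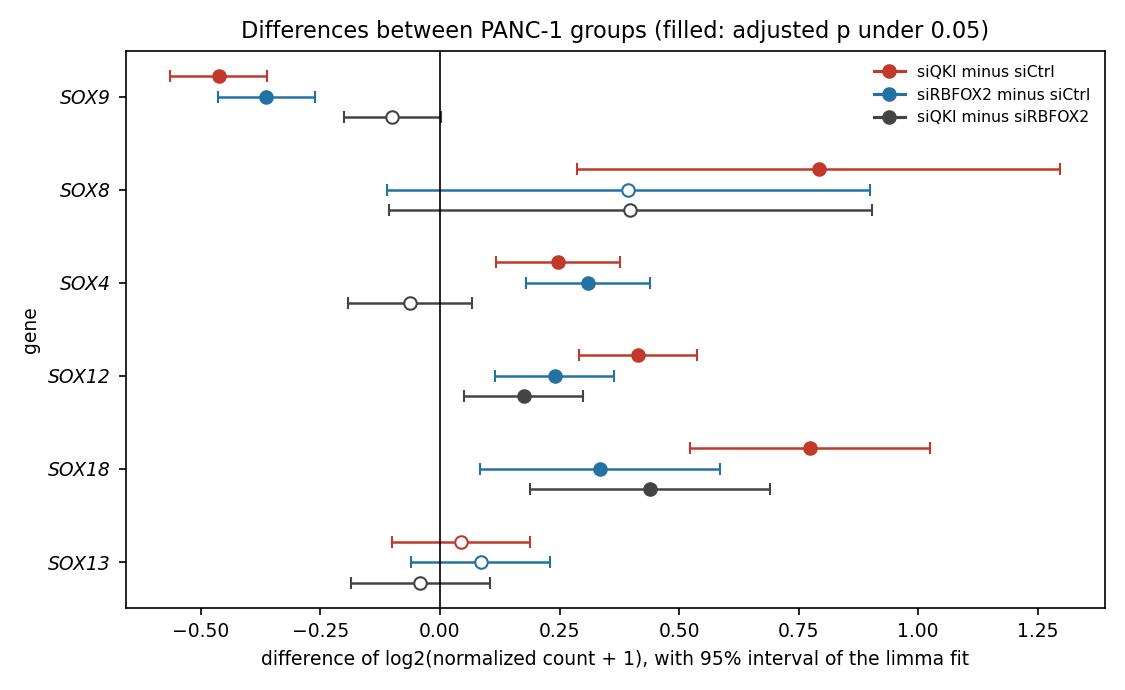
Differences of log2(normalized count + 1) between PANC-1 groups (x axis) with 95% intervals of the limma fit, for 6 members (y axis) and 3 contrasts (colours), where filled points have an adjusted p under 0.05. SOX9 lies left of 0 in both knockdowns, SOX18 and SOX12 have filled points in all 3 contrasts, and SOX6, whose intervals span several log2 units, is left out.

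With SOX9 lower and SOX4, SOX12 and SOX18 higher, the groups took different shares of the members' summed level in the knockdowns. The SOXE share of the summed level per kb was 77.8% to 80.0% in siCtrl libraries, 67.1% to 68.3% in siQKI libraries and 70.3% to 72.3% in siRBFOX2 libraries. The SOXC share was 14.8% to 16.4%, 21.5% to 23.4% and 20.4% to 22.1%, and the SOXF share 2.91% to 3.73%, 5.66% to 7.53% and 4.53% to 4.96%. The SOXD share was 2.09% to 2.28%, 2.65% to 2.69% and 2.64% to 2.77%, although SOX13 did not pass in either knockdown. For each of these shares, the knockdown libraries did not overlap the siCtrl libraries. SOX9 is the largest part of the sum, so its fall alone raises the shares of the other groups. The shares follow from the counts above and were not tested apart from them.

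**Figure D3:**
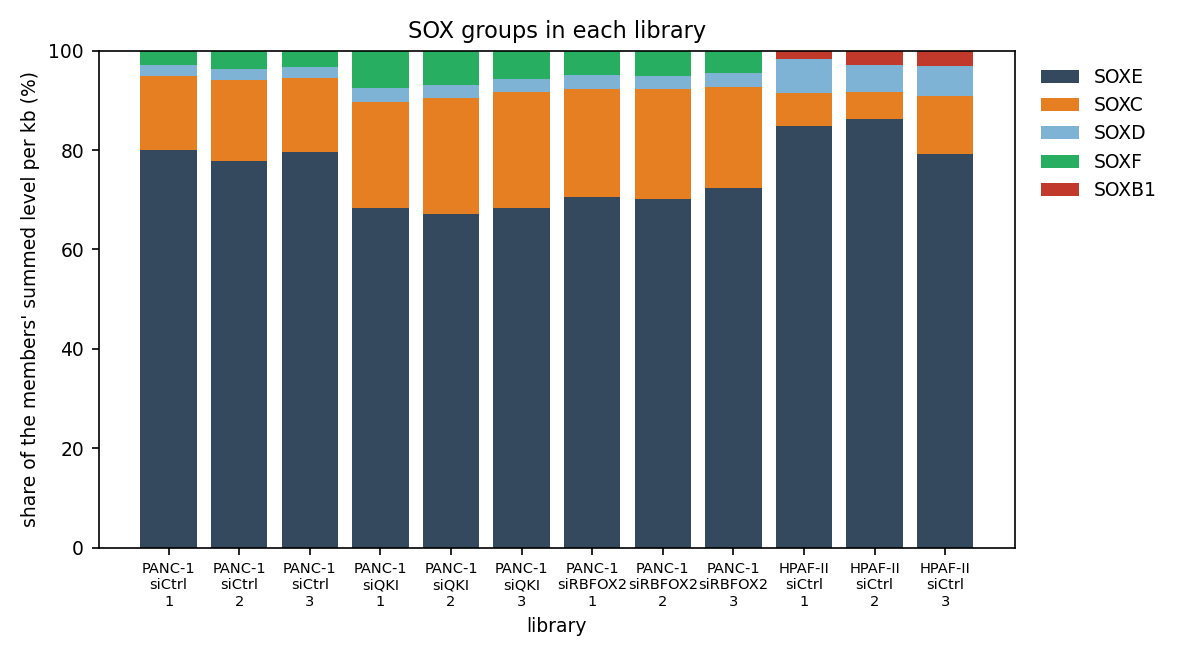
Share of the members' summed level per kb (y axis, in percent) that belongs to each SOX group (colours) in each of the 12 libraries (x axis). The SOXE part is smaller in siQKI and siRBFOX2 libraries than in PANC-1 siCtrl libraries, and the SOXB1 part is visible only in HPAF-II libraries, where it is 1.68% to 3.16%.

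The lines were compared by their siCtrl libraries. The tables were normalized apart, so values were rescaled to a total of 1000000 and described without a test. A gene was called different at a ratio of at least 2-fold with no overlap of the libraries, which 42.7% of 24673 expressed genes met, 21.1% higher and 21.6% lower in HPAF-II. Of the 10 members, 8 were expressed in either line and 6 were called, 3 higher and 3 lower in HPAF-II.

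SOX2 was the clearest gain in HPAF-II, with 4.19, 7.31 and 6.78 rescaled counts against 0, 0.00861 and 0 in PANC-1. No ratio is given, since PANC-1 is listed at 0 in 2 of 3 libraries. SOX2-OT, in which SOX2 lies, was low in both lines (0.146 ± 0.127 in HPAF-II and 0.0239 ± 0.00133 in PANC-1). It lay far under SOX2 in HPAF-II and above SOX2 (0.00287 ± 0.00497) in PANC-1. SOX13 was higher in HPAF-II, with 49.7, 41.0 and 37.1 against 18.0, 14.9 and 16.6, a log2 ratio of 1.37. With upper-quartile scaling that ratio was 1.03, close to the 2-fold limit. SOX6 was also above PANC-1 in every library, but varied widely, with 0.168, 1.67 and 0.365 against 0.0254, 0.0144 and 0.122. Its log2 ratio moved from 3.54 to 2.11 without HPAF-II siCtrl replicate 2 and to 4.64 without PANC-1 siCtrl replicate 3.

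SOX18 and SOX8 were found in PANC-1 and nearly missing from HPAF-II. SOX18 had 5.78, 6.67 and 6.21 rescaled counts in PANC-1 against 0.0265, 0 and 0 in HPAF-II. SOX8 had 0.887, 1.87 and 1.38 against 0.0132, 0 and 0. Both were present in the same HPAF-II library only, replicate 1. SOX4 was lower in HPAF-II, with 17.3, 15.4 and 26.4 against 50.6, 46.3 and 43.5, a log2 ratio of -1.25. SOX12 was lower in every HPAF-II library as well (16.9, 13.7 and 25.5 against 33.3, 36.2 and 34.3), but its log2 ratio of -0.89 was under 2-fold, and it was called under 5 of 11 alternatives.

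SOX9 did not separate the lines. It had 332, 346 and 267 rescaled counts in HPAF-II and 335, 292 and 312 in PANC-1, so that the libraries overlapped, with a log2 ratio of 0.0092 that became -0.33 after rescaling by the upper quartile. The level per kb in HPAF-II was 80.1 ± 10.8 for SOX9, then 5.74 ± 0.870 for SOX13, 4.03 ± 1.32 for SOX12, 3.37 ± 0.999 for SOX4 and 2.43 ± 0.665 for SOX2, and neighbours from SOX13 to SOX2 overlapped. HPAF-II replicate 3 held the highest SOX4 and SOX12 values of its group and the lowest SOX9 and SOX13 values. The epithelial markers CDH1, GATA6, ESRP1 and GRHL2 summed to 348 to 513 per 1000000 in HPAF-II and 4.79 to 4.98 in PANC-1 siCtrl libraries, and the mesenchymal markers ZEB1, VIM, CDH2 and FN1 to 1.21 to 16.4 and 5376 to 5567. The same epithelial sum was 9.46 to 12.2 in siQKI and 6.41 to 7.21 in siRBFOX2 libraries, above siCtrl in each case. CDH1 was its largest part, with means of 2.87 in siCtrl, 7.91 in siQKI and 4.33 in siRBFOX2 libraries. GATA6 and ESRP1 were above siCtrl in siQKI libraries but overlapped it in siRBFOX2 libraries, and GRHL2 was listed at 0 in siQKI libraries. The mesenchymal sum was 5138 to 5293 in siQKI libraries, below siCtrl, and 5492 to 5542 in siRBFOX2 libraries, within the siCtrl range. VIM made up nearly all of it, with a mean of 5422 in siCtrl. CDH2 went the other way, at 37.3 to 40.4 in siCtrl, 46.5 to 51.0 in siQKI and 45.9 to 48.7 in siRBFOX2 libraries. ZEB1 was below siCtrl in siQKI and overlapped it in siRBFOX2 libraries, and FN1 overlapped siCtrl in both knockdowns. The sum of the 6 duct markers was 2569 to 2663 in siCtrl, 2577 to 2736 in siQKI and 2152 to 2310 in siRBFOX2 libraries, the last below siCtrl. The part of these sums, and of the blood sum, in the SOX differences was not tested.

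**Figure D4:**
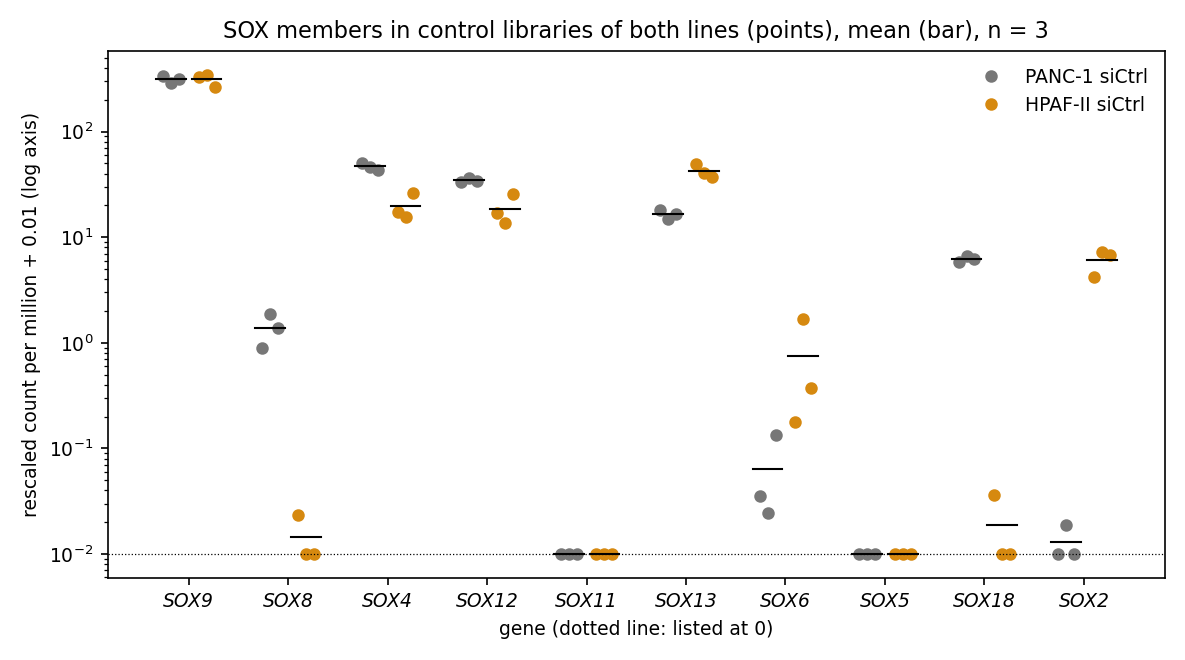
Rescaled counts per 1000000 plus 0.01 (y axis, log scale) of the 10 members (x axis) in the 3 PANC-1 siCtrl and 3 HPAF-II siCtrl libraries (points, with the mean as a bar), where points on the dotted line are listed at 0. SOX9 overlaps between the lines, SOX2 and SOX13 are higher in HPAF-II, and SOX8 and SOX18 are at or near 0 there.

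Other genes of the family and of its pathways were counted from lists, and their changes are differences of log2(normalized count + 1). The counts stand beside the shares of all genes tested. These were 14.9% higher and 18.1% lower after siQKI, and 12.0% higher and 14.5% lower after siRBFOX2. No list was tested as a set. Of 9 other SOX genes, 5 were tested and only SOX21, a SOXB2 repressor related to SOX2, passed in either knockdown. It rose after siRBFOX2 from 4935 ± 258 to 5815 ± 257 (log2 fold change 0.24, SE 0.07, adjusted p = 0.0142), a call lost under 4 of 18 alternatives, among them without siCtrl replicate 2 or 3 and without siRBFOX2 replicate 1 (adjusted p up to 0.0601 over the 18). After siQKI 0 of the 5 passed by limma, and 0 had an unadjusted p under 0.05. SOX7 and SOX15 were higher in HPAF-II (19.8 ± 2.45 against 0.275 ± 0.0917, and 5.34 ± 1.30 against 0.163 ± 0.104 per 1000000), and SOX21 was lower (6.94 ± 1.78 against 14.4 ± 0.944). SOX7 belongs with SOX18 to the SOXF group. Of 8 SOX-associated noncoding RNAs in the table, 3 were tested and 0 passed by limma in either knockdown, with 0 after siQKI and 1 after siRBFOX2 at an unadjusted p under 0.05.

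Among 8 tested cartilage genes known as targets of SOX9 with SOX5 and SOX6, 3 were higher and 0 lower after siQKI, and 4 were higher and 0 lower after siRBFOX2, while SOX9 itself was lower. The median log2 fold change was 0.42 and 0.46, against 0.025 and 0.011 over all genes tested. COL11A1, a fibrillar collagen chain, rose from 32515 ± 2230.1 to 46912 ± 1812 after siQKI (log2 fold change 0.53, adjusted p = 1.04e-06) and to 47878 ± 1701 after siRBFOX2 (log2 fold change 0.56, adjusted p = 1.24e-06). COL2A1, the main cartilage collagen, rose from 115 ± 13.8 to 307 ± 68.3 after siQKI (log2 fold change 1.39, adjusted p = 5.45e-04) and to 197 ± 7.49 after siRBFOX2 (log2 fold change 0.77, adjusted p = 0.0352). The second call was lost under 8 of 18 alternatives, among them when any 1 of the 3 siCtrl or 3 siRBFOX2 libraries was left out. COL9A3 rose after siQKI (0.54), and COL11A2 (0.77, lost without a mean-variance trend) and MATN3 (0.69, lost without siRBFOX2 replicate 2) rose after siRBFOX2. The fibroblast marker COL1A1 summed with COL1A2, DCN and LUM to 11.2 to 12.6 per 1000000 in siCtrl, 23.1 to 26.9 in siQKI and 13.5 to 20.7 in siRBFOX2 libraries, with COL1A2, DCN and LUM listed at 0 in siCtrl. Its part in the collagen values was not tested.

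Among 8 tested ductal progenitor genes expressed with SOX9, 0 were higher in either knockdown, and 1 was lower after siQKI and 3 after siRBFOX2. FOXA2, an endoderm factor, fell by 0.19 on the log2 scale after siQKI (adjusted p = 0.00122, lost with upper-quartile scaling) and by 0.37 after siRBFOX2 (adjusted p = 6.96e-06). HES1, a Notch target, fell by 0.83 (adjusted p = 4.04e-06) and KRT19, a duct keratin, fell by 0.23 (adjusted p = 5.95e-04) on the log2 scale after siRBFOX2. The list medians were -0.07 and -0.08. With upper-quartile scaling 1 gene of the list was higher and 0 were lower after siQKI, with a median of 0.015.

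Of 4 tested SOX4 and SOX11 targets, 3 were higher and 0 lower after siQKI, and 2 were higher and 0 lower after siRBFOX2, with medians of 0.20 and 0.06. MAP2, a neuronal microtubule protein, rose by 1.03 after siQKI (adjusted p = 1.92e-07) and by 0.69 after siRBFOX2 (adjusted p = 2.01e-05) on the log2 scale. TUBB3, a neuronal tubulin, rose by 0.22 (adjusted p = 1.84e-04) and by 0.14 (adjusted p = 0.00615). TEAD2 was higher after siQKI by 0.19 (adjusted p = 0.0469), a call lost under 12 of 18 alternatives, among them without any 1 of the siCtrl or siQKI libraries and without siRBFOX2 replicate 2.

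Of 9 tested SOX2 and POU partner or pluripotency genes, 1 was higher and 3 lower after siQKI, and 1 was higher and 2 lower after siRBFOX2, with medians of -0.27 and -0.26. KLF4 fell by 0.46 (adjusted p = 1.96e-04) and by 0.80 (adjusted p = 1.88e-06) on the log2 scale, and MYC fell by 0.27 (adjusted p = 2.48e-05) and by 0.26 (adjusted p = 6.35e-05). LIN28B fell by 0.32 after siQKI (adjusted p = 0.00995, lost without siQKI replicate 2 and with upper-quartile scaling). PAX6, an eye and islet factor that partners SOX2, rose by 1.03 (adjusted p = 6.77e-04) and by 0.99 (adjusted p = 0.00138).

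Of 7 tested glial and neural crest targets of SOX8 and SOX10, 2 were higher and 2 lower after siQKI, and 1 was higher and 1 lower after siRBFOX2, with medians of -0.03 and 0.07. MBP, the myelin basic protein gene, fell by 0.68 (adjusted p = 6.47e-09) and by 0.89 (adjusted p = 9.45e-10) on the log2 scale. MITF fell by 0.41 after siQKI (adjusted p = 2.88e-04). RET rose by 0.82 (adjusted p = 0.0152) and ERBB3 by 0.51 (adjusted p = 0.0472) after siQKI. The RET call was lost under 3 of 18 alternatives, among them without siCtrl replicate 3 and without siQKI replicate 1, and the ERBB3 call under 11, among them without siCtrl replicate 1, siQKI replicate 1 or 2 or any 1 of the siRBFOX2 libraries. TFAP2A rose by 0.32 after siRBFOX2 (adjusted p = 0.00121).

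Of 4 tested endothelial genes of the SOX18 group, 0 passed by limma after siQKI (1 at an unadjusted p under 0.05) and 1 after siRBFOX2, with medians of -0.08 and 0.32. This was KDR, a VEGF receptor, which was listed at 0 in siCtrl and at 41.6 ± 27.4 in siRBFOX2 libraries (adjusted p = 0.0144). The call was lost without siRBFOX2 replicate 1. KDR had rescaled means of 0 in siCtrl, 0.0485 in siQKI and 0.125 in siRBFOX2 libraries, and passed the filter mainly through the last. Its log2 fold change was 2.23 with a pseudocount of 10 and 8.48 with 0.1. The call is therefore weak, and the size of the change is not known. Of 21 other HMG-box genes, all of them tested, 4 were higher and 6 lower after siQKI, and 2 were higher and 5 lower after siRBFOX2, with medians of -0.08 and 0.01. With upper-quartile scaling the balance after siQKI turned, to 5 higher and 3 lower. TFAM, the mitochondrial HMG-box factor, rose by 0.87 (adjusted p = 4.77e-10) and by 0.55 (adjusted p = 1.33e-07) on the log2 scale. TOX2 fell by 0.48 (adjusted p = 9.33e-06) and by 0.30 (adjusted p = 9.32e-04). UBTF rose by 0.33 (adjusted p = 5.01e-06) after siQKI, and PBRM1 fell by 0.41 (adjusted p = 2.16e-05) and SSRP1 by 0.27 (adjusted p = 7.63e-05) after siRBFOX2.

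For the 3 most abundant members, the genes with the most similar pattern over the 9 PANC-1 libraries were picked among 15250 genes by Pearson's r of log2 values, as a description. For SOX9 they included TMEM165 (0.983) and PPP1R18 (0.983). For SOX4 they were DNAH3 (0.977), NBPF12 (0.976) and URGCP (0.969). For SOX12 they were DHTKD1 (0.997), TECPR2 (0.989) and EMSY (0.978). The 9 libraries share 3 groups, so a gene that differs between the groups in the same way reaches a high r.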

How the data were processed

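PolyA-selected RNA of 9 PANC-1 and 3 HPAF-II libraries was sequenced in paired-end format. The submitters' notes name STAR 2.7.5a, SAMtools, Picard, FastQC, DESeq2 and hg38. The deposited signal is the count of each FAST DB gene, scaled by the authors with DESeq2 size factors estimated apart for each line. The software list of the study includes featureCounts without tying it to these tables, and the strand setting is not given in the sources used here. All values of a library were whole multiples of 1 step (within 0.01), and 82.1% to 84.8% of values of 1 to 30 steps were multiples of 3.

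A single limma 3.58.1 fit of the 9 PANC-1 libraries in R 4.3.3, with a mean-variance trend and no block, gave all 3 contrasts and was tested on simulated data. Lines were described on values rescaled to 1000000, with a pseudocount of 0.01 in ratios. Tables and figures were made in Python 3.11.15. Promoters are from RefSeq (GRCh38.p14), where 6 of the 10 members had an entry, and gene models from GENCODE 29.

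All 10 members are named with their values. List genes are named where they passed in either knockdown, at most the 4 with the largest change per list and contrast, and list genes between the lines only for other SOX genes. Results of 2 genes that these rules name are not reported here. Similar patterns were sought among genes with a mean of at least 50. The members, lists and tests were chosen with earlier results of these data known. Alternatives were pseudocounts of 0.1 and 10, no filter, a mean of at least 50, a fit of the groups compared, a replicate block, no trend, upper-quartile and TMM scaling, and each library left out.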

Additional observations from a re-analysis of the deposited data

Results flagged for a closer look

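In the direct contrast of the knockdowns, 2 of 7 tested members passed, where 21.5% of all genes tested passed and 9.93% were higher after siQKI. SOX18 was higher after siQKI than after siRBFOX2 by 0.44 on the log2 scale (SE 0.12, limma, adjusted p = 0.0134, range over 18 alternatives 9.29e-04 to 0.0971), with every siQKI library above every siRBFOX2 library. SOX12 was higher after siQKI by 0.17 (SE 0.06, adjusted p = 0.0432, range 0.0162 to 0.187), also without overlap. The SOX12 call was lost under 9 of the 18 alternatives and the SOX18 call under 3. QKI itself was at 19.7% of siCtrl in the siQKI libraries and RBFOX2 at 13.6% in the siRBFOX2 libraries, and the depth of the knockdowns cannot be told apart from their targets. The smallest siQKI value of SOX18 was 2957 normalized counts and the largest siRBFOX2 value 2792.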

How the results depend on the processing

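SOX9 kept its call in both knockdowns, and SOX12 and SOX18 after siQKI and SOX4 after siRBFOX2 kept theirs, under all 18 alternatives. Without a mean-variance trend, 3 members passed after siQKI (SOX9, SOX12 and SOX18), 2 after siRBFOX2 (SOX4 and SOX9) and 0 between the knockdowns, where 1 passed with no filter and 1 with TMM scaling (SOX18 in both). Calls over all 22544 genes tested also fell without the trend, from 7432, 5985 and 4844 to 5948, 4259 and 3374. Between the knockdowns, 4568 of 31618 genes passed with no filter and 4827 of 22540 with TMM scaling. With each library left out, 6213 to 7648 of all genes passed after siQKI, 4831 to 5947 after siRBFOX2 and 3901 to 4789 between the knockdowns. Of the members, 4 to 5 then passed after siQKI, 3 to 4 after siRBFOX2 and 0 to 2 between the knockdowns, with 0 without siRBFOX2 replicate 3 and SOX9 alone without siQKI replicate 1. The cause was not tested. Directions turned only for values that did not pass. With 1 library left out, SOX6 after siQKI lay between -1.63 and 0.16 (above 0 without siCtrl replicate 3 or siQKI replicate 3) and SOX13 after siQKI between -0.020 and 0.098 (below 0 without siCtrl replicate 2 or siQKI replicate 1). For SOX13 the difference between the knockdowns was 0.0027 with upper-quartile scaling. That of SOX4 lay between -0.11 and 6.9e-04 (above 0 without siRBFOX2 replicate 2). Upper-quartile scaling moved the median log2 fold change of all genes from 0.025 to 0.11 after siQKI. Between the lines, 6 to 7 members were called under every alternative.

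With the replicate number as a block, 5, 4 and 2 members passed, as without it. Over all genes tested, 7336, 5891 and 4758 passed with the block. Deviations of same-numbered libraries correlated between -0.0325 and 0.0235, and those of differently numbered libraries between -0.0333 and 0.0384. No shared deviation was seen, which does not settle whether the numbers pair the libraries. The planned count-based alternatives were not run, since whole reads could not be recovered from the deposited values. The number of fragments is unknown, so values near 0 (SOX2, SOX5, SOX6 and SOX11 in PANC-1, SOX8 and SOX18 in HPAF-II) carry no counting interval.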
